A study of Arabidopsis thaliana with 12 samples.

Results

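Nitrilases are enzymes that hydrolyse nitriles to carboxylic acids or amides, and Arabidopsis carries 4 genes that bear the name: NIT1 (AT3G44310), NIT2 (AT3G44300), NIT3 (AT3G44320) and NIT4 (AT5G22300). Their transcripts were followed in inflorescences in which flower formation was switched on synchronously. Members were taken by locus, as every probe whose array name starts with 1 of the 4 locus numbers, which gave 4 probes, 1 per gene, out of 43643 probes other than controls for 28327 loci. The family was chosen by measured values of all 3 time steps (NIT2 stood among the largest increases between day 4 and day 8), so the ratios of the members are given here as a description and without a test. All 4 probes passed the filter on dim probes, which kept 20906 loci.

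All plants were pAP1:AP1-GR ap1-1 cal-1, in which the promoter of the floral regulator APETALA1 (AP1) drives AP1 fused to the hormone-binding domain of the glucocorticoid receptor, in a double mutant that forms masses of inflorescence-like meristems instead of flowers. Dexamethasone (DEX, 2 µM, applied daily) lets the fusion protein enter the nucleus. Tissue came from day 0, before DEX induction (mock solution without DEX, collected at once), and from days 2, 4 and 8 after the first treatment. The same genotype served at every day, and DEX-free plants of days 2, 4 and 8 were not analysed here, so time, repeated treatment and AP1 activity cannot be told apart. Each extract was pooled from several plants, and 4 biologically independent sets gave 16 extracts.

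Each set was hybridised as day 2 against day 0, day 4 against day 2 and day 8 against day 4, which made 12 two-colour arrays, 4 per step. The dyes were swapped, with the later day in Cy5 in sets 1 and 3 and in Cy3 in sets 2 and 4. Ratios below are log2 of the later over the earlier day, so 1 unit is a doubling, and a locus was called when limma's moderated test over all 12 arrays passed an adjusted p of 0.05 with a difference of 1.8-fold or more. In single channels 55.7% to 73.6% of probes were well above background, and saturation marked none. For the arrays of day 2 over day 0 in sets 3 and 4, the scanner values did not match the deposited ratios (16.3% and 20.2% of probes within 0.0001, against 99.98% to 99.99% on the other 10 arrays), so signals at day 0 rest on sets 1 and 2. All arrays of day 2 over day 0 lay on 1 slide, whereas sets 1 and 2 of the later steps shared a slide and sets 3 and 4 another. The day 8 over day 4 array of set 2 was scanned on its own and had 1340 outlier-marked probes, against 19 to 110 on the others.

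NIT1, NIT2 and NIT3 are close paralogs that lie side by side in the genome, and their enzymes act on indole-3-acetonitrile and on nitriles from glucosinolate breakdown. Hydrolysis of indole-3-acetonitrile yields the auxin indole-3-acetic acid. NIT4 is the more distant member. It converts β-cyanoalanine, the product of cyanide detoxification, to asparagine and aspartate. Cyanide is released along with ethylene by ACC oxidase, which ties NIT4 to ethylene production. NIT3 is known for its induction under sulfur starvation. Sequences of the probes were not used here, and whether a probe of NIT1, NIT2 or NIT3 also binds transcripts of the other paralogs was not tested.

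The 4 genes followed different courses. NIT2 was not well above background at day 0 and had its largest ratio at day 8 over day 4. NIT1 was bright at all days and had its largest ratio in the last step. NIT4 went up at day 2, down at day 4 and up again at day 8, while NIT3 stayed near the detection limit.

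**Figure D1:**
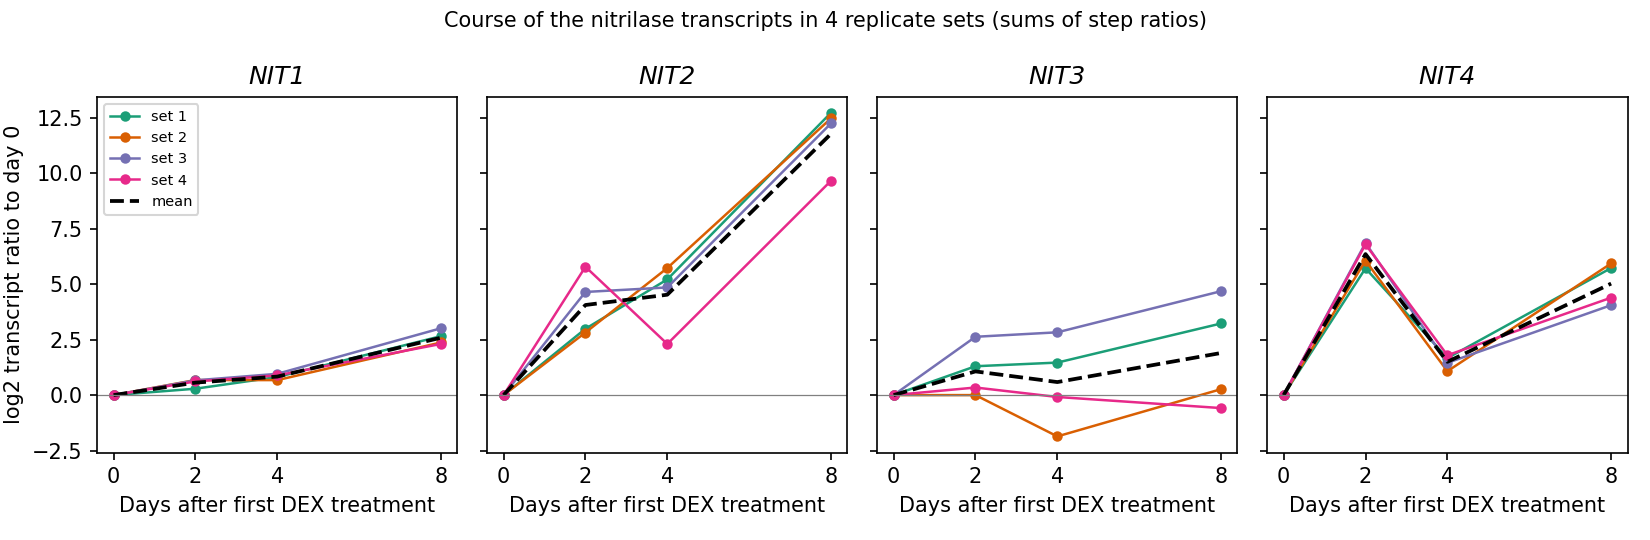
Transcript ratio to day 0 (vertical axis, log2) against days after the first DEX treatment (horizontal axis) for each nitrilase, as sums of the step ratios within each of 4 replicate sets (coloured lines) and their mean (dashed line). NIT2, whose day 0 signal was not well above background, ends between 9.66 and 12.7, NIT4 is high at days 2 and 8 and low at day 4 in all 4 sets, and the sets of NIT3 spread on both sides of 0.

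NIT2 had the largest change of the family. At the step of day 8 over day 4 its log2 ratios were 7.51, 6.75, 7.40 and 7.36 in sets 1 to 4, a mean of 7.25 ± 0.34 (SD, n = 4) or 152.6-fold. The 4 sets lay close together, and the brightest probe of only 4 other loci of 20906 had a larger ratio. Processed signals were 37984, 28212, 23252 and 34021 at day 8, against 208, 263, 138 and 207 at day 4 on the same arrays. Both dyes gave the change, with a mean of 7.45 where day 8 carried Cy5 and 7.05 where it carried Cy3.

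At the step of day 2 over day 0 the NIT2 log2 ratios were 2.99, 2.82, 4.65 and 5.78, a mean of 4.06 ± 1.41 (SD, n = 4). All 4 were above 0, with the higher values in sets 3 and 4, the arrays whose scanner values did not match. The mean was 2.91 in sets 1 and 2 and 5.22 in sets 3 and 4. In sets 1 and 2 the NIT2 probe gave 42.7 and 26.5 at day 2, against 5.37 and 3.75 at day 0, where it was not well above background in either channel. Set against the lowest signal of any probe well above background on those arrays, the NIT2 signal of day 2 was 2.99-fold higher. A probe not well above background can read above that level, so 2.99 is not a strict lower bound on the fold over day 0. This value compares means of normalised log2 signals over the 2 arrays, and the ratio in the deposited values is larger because it divides by a signal below that level. The scanner intensities of the 10 matching arrays were also normalised anew, which at this step left sets 1 and 2 alone. The NIT2 log2 ratio was then 0.25 with normexp, a background correction that here adds an offset to each signal. It was 0.56 without background correction, against 2.91 in the deposited ratios of sets 1 and 2, and NIT2 was called in neither setting.

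The step of day 4 over day 2 split the sets for NIT2. Its log2 ratios were 2.23 and 2.91 in sets 1 and 2, 0.20 in set 3 and -3.48 in set 4, a mean of 0.46 ± 2.87 (SD, n = 4). The mean within the slide of sets 1 and 2 was 2.57 and that within the slide of sets 3 and 4 was -1.64, so the slides differed in sign. In the fit with its dye term, leaving out set 4 moved the estimate to 1.78. Leaving out set 1 moved this estimate to -0.06 and leaving out set 2 to -0.51. The spread came from day 2 more than from day 4. At day 4 the signals on these arrays were 172, 262, 208 and 111 in sets 1 to 4, whereas at day 2 they were 36.7, 35.0, 180 and 1234. The day 2 extract of set 4 thus stood apart, and set 4 also had the highest ratio of day 2 over day 0.

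Set numbers were taken to pair the arrays, which a check described below did not bear out. Where 1 extract was read on 2 arrays by this pairing, NIT2 signals differed by at most 1.87-fold. This was far less than the differences between the day 2 signals of the sets. Sums within sets and the NIT1 and NIT4 readings of 1 extract on 2 arrays rest on the same pairing. Set 1 read 42.7 and 36.7 at day 2, and set 2 read 26.5 and 35.0. The day 2 signals of set 3 (180) and set 4 (1234) had only 1 reading each on a matching array. How well these 2 values repeat was thus not seen. Summed within sets, NIT2 at day 8 was 12.7, 12.5, 12.2 and 9.66 log2 units above day 0 in sets 1 to 4, a mean of 11.8 ± 1.42 (SD, n = 4). Days 0 and 8 shared no array, so this value is a sum of 3 steps. Its first step divides by a day 0 signal that was not well above background, so its size is not a measured fold and is given no rank. In the deposited ratios NIT2 was thus higher in every set at day 8 than at day 4, and at day 2 than at day 0. The second difference was not called in the renormalised intensities, which held only sets 1 and 2 at that step. Days 4 and 2 were not separated beyond the spread between sets.

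**Figure D2:**
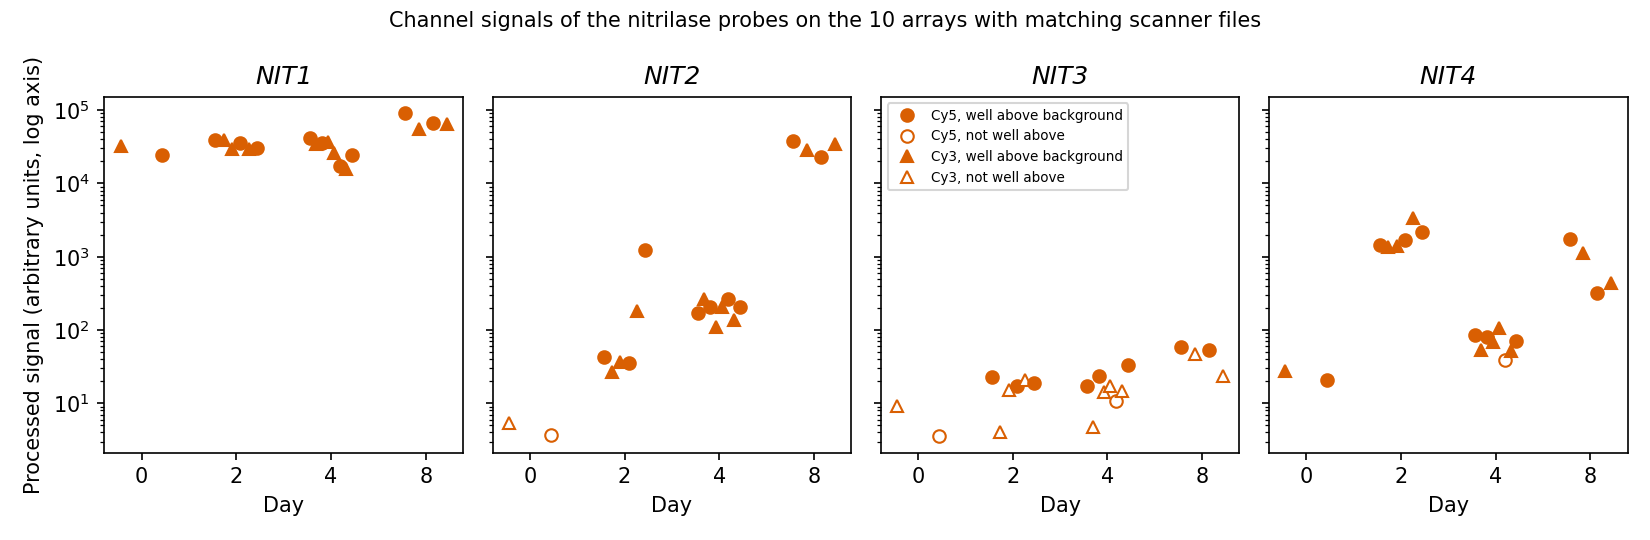
Processed signal in arbitrary units (vertical log axis) of the 4 nitrilase probes by day (horizontal axis) on the 10 arrays whose scanner values match the deposited ratios, with 1 point per channel, circles for Cy5, triangles for Cy3 and open symbols for channels not well above background. NIT1 is bright at every day, NIT2 spans 26.5 to 1234 at day 2 and 23252 to 37984 at day 8, NIT3 never exceeds 57.8, and NIT4 lies between 38.9 and 105.4 at day 4. Levels of different probes are not comparable, because probes differ in their response.

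NIT1, next to NIT2, also had its largest ratio at day 8 over day 4. The log2 ratios were 1.84, 1.70, 2.05 and 1.42 in sets 1 to 4, a mean of 1.75 ± 0.27 (SD, n = 4) or 3.37-fold. Processed signals were 92305, 55656, 66013 and 65644 at day 8, against 25741, 17167, 15895 and 24566 at day 4 on the same arrays. The days did not overlap.

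The earlier steps of NIT1 were small. At day 2 over day 0 the log2 ratios were 0.29, 0.68, 0.66 and 0.62, a mean of 0.56 ± 0.18 (SD, n = 4), which is 1.48-fold and below the 1.8-fold minimum. At day 4 over day 2 they were 0.53, -0.0026, 0.29 and 0.27, a mean of 0.27 ± 0.22 (SD, n = 4). Set 2 showed no difference at this step, and the other sets were above 0. Summed within sets, NIT1 at day 8 was 2.59 ± 0.32 log2 units above day 0 (SD, n = 4), with all 4 sets between 2.31 and 3.01.

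The NIT1 signal of the day 4 extracts depended on the array. Each day 4 extract read lower on its array with day 8 than on its array with day 2, by 1.64-, 2.04-, 2.25- and 1.48-fold in sets 1 to 4. Only between 1.19% and 4.70% of tested probes read lower still in these pairs of arrays. The corresponding log2 differences of NIT1 were -0.72, -1.03, -1.17 and -0.57, against medians over all tested probes of 0.27, -0.09, -0.20 and -0.02. The comparison was added after the data had been seen, and its part in the ratio of day 8 over day 4 was not tested. The NIT1 signals at day 8 (55656 to 92305) lay above those at day 4 on either array (15895 to 42270).

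NIT3 could hardly be measured. Its signals lay between 3.54 and 57.8 at all days, and it was well above background in 0 of 10 Cy3 channels and in 8 of 10 Cy5 channels. The fit gave a dye term of 0.69 log2 units for NIT3, against 0.08 for NIT1, 0.24 for NIT2 and -0.05 for NIT4. At day 8 over day 4 the log2 ratios were 1.76, 2.13, 1.85 and -0.50, a mean of 1.31 ± 1.22 (SD, n = 4). Sets 1 to 3 were above 0 and set 4 was below it. Signals at day 8 were 57.8, 47.0, 53.4 and 23.3, against 17.0, 10.7, 14.8 and 32.9 at day 4 on the same arrays, so the days overlapped through set 4.

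At day 2 over day 0 the NIT3 log2 ratios were 1.30, listed at 0, 2.63 and 0.34, a mean of 1.07 ± 1.18 (SD, n = 4). The mean was 1.96 where day 2 carried Cy5 and 0.17 where it carried Cy3. In sets 1 and 2 NIT3 was not well above background at day 0, and at day 2 it was well above background in set 1 and not in set 2. No fold over the lowest signal well above background is given for NIT3. Its mean log2 signal of day 2 over the 2 arrays (3.40) did not exceed the mean of those lowest signals (4.01). At day 4 over day 2 the log2 ratios were 0.16, -1.86, 0.20 and -0.43, a mean of -0.48 ± 0.96 (SD, n = 4), with the lower values in sets 2 and 4, where day 4 carried Cy3. In the fit with its dye term, leaving out set 2 gave an estimate of 0.79 at day 8 over day 4. Leaving out set 3 gave an estimate of 0.74 at day 2 over day 0.

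NIT4, the β-cyanoalanine nitrilase, changed at every step. At day 2 over day 0 its log2 ratios were 5.72, 6.06, 6.86 and 6.79 in sets 1 to 4, a mean of 6.36 ± 0.56 (SD, n = 4) or 81.9-fold. In sets 1 and 2 the signals were 1449 and 1378 at day 2, against 27.6 and 20.7 at day 0, where both channels were well above background. The size of the ratio depended on the processing. It was 3.43 with normexp and 4.197 without background correction, 2 settings that at this step held sets 1 and 2 alone. The deposited ratios had a mean of 5.89 in those sets and 6.36 in all 4. NIT4 was called higher with normexp, without background correction and in the deposited ratios.

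At day 4 over day 2 the NIT4 log2 ratios were -4.05, -4.98, -5.41 and -4.997, a mean of -4.86 ± 0.57 (SD, n = 4), which is 29.0-fold lower at day 4. Signals were 84.4, 53.0, 80.9 and 68.8 at day 4, against 1395, 1674, 3427 and 2197 at day 2 on the same arrays. Only 6 of 20906 loci had a more negative ratio at this step. Summed over both steps, NIT4 at day 4 remained 1.499 ± 0.31 log2 units above day 0 (SD, n = 4), with all 4 sets between 1.08 and 1.797.

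At day 8 over day 4 the NIT4 log2 ratios were 4.06, 4.86, 2.60 and 2.59, a mean of 3.53 ± 1.12 (SD, n = 4) or 11.5-fold. The mean was 4.46 within the slide of sets 1 and 2 and 2.60 within the slide of sets 3 and 4. Signals were 1755, 1127, 318 and 433 at day 8, against 105.4, 38.9, 52.4 and 71.6 at day 4 on the same arrays. The days did not overlap, and sets 1 and 2 were higher at day 8 than sets 3 and 4. The day 4 channel of set 2, which gave the largest ratio, was not well above background. With normexp the mean ratio of this step was 0.57 and NIT4 was not called. Where 1 extract was read on 2 arrays, NIT4 signals differed by at most 1.54-fold. Relative to day 0 the order of the NIT4 levels was day 4 below day 8 below day 2 in the mean (1.499, 5.03 ± 0.94 and 6.36). Days 8 and 2 overlapped between sets, with 4.05 to 5.93 at day 8 and 5.72 to 6.86 at day 2. Within sets 1 and 2 they were close, at 5.73 and 5.72 in set 1 and 5.93 and 6.06 in set 2. The lower mean of day 8 came from set 3 (4.05 and 6.86) and set 4 (4.39 and 6.79). In these sets the scanner values of day 2 over day 0 did not match.

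The fit over all loci also held the members, and which of them passed its thresholds is listed here as a description and not as a test of the family. The thresholds were passed upward by 3 of the 4 nitrilases at day 2 over day 0 (NIT2, NIT3 and NIT4), where 8.76% of all loci were called higher and 5.81% lower. At day 4 over day 2, 1 passed downward (NIT4) and 0 upward, where 3.36% of loci were called higher and 5.78% lower. All 4 passed upward at day 8 over day 4, where 12.7% of loci were called higher and 5.56% lower. All 4 also passed upward for the net change of day 8 over day 0, with 15.3% of loci called higher and 12.1% lower. Because the family was selected on these ratios, nothing is read from these counts. The NIT3 calls were the least stable. That of day 2 over day 0 was lost under 8 of 13 other settings of the fit, among them leaving out set 1, 3 or 4, and that of day 8 over day 4 was lost under 3, among them leaving out set 2.

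As a check of the labelled tissue, all 8 listed meristem and floral organ genes passed the filter on dim probes. Of these 5 rose at day 2 over day 0, led by AP3, which specifies petals and stamens, at 5.41 ± 0.12 (model SE), and by SEP3, a cofactor of the floral organ identity genes, at 3.19 ± 0.10. Of the same 8 genes 3 rose and 1 fell at day 4 over day 2, with a list median of 0.38. At day 8 over day 4, 1 of them rose (SEP3, 0.90) and 2 fell, with a list median of -0.03. At this step NIT1 and NIT2 had their largest ratios, and 12.7% of all loci were called higher. Markers of other tissues and states rose there. They were 3 of 3 tested tapetum genes (of 5 listed), with ratios of 2.14 to 4.38, of which AMS was not called without set 4 (0.31), 4 of 5 tested genes of senescing leaves (of 6 listed; 0.30 to 3.57), and 4 of 5 dehydration and seed genes (-0.07 to 7.45). SAG12, a defining gene of senescing leaves, did not pass the filter on dim probes. With normexp the tapetum genes TDF1 (0.12), AMS (-0.02) and DYT1 (0.22) were not called at day 8 over day 4. Nor were RD29A (0.11), RD29B (0.14), ECP63 (0.52), SAG13 (0.88) and NYE1 (0.53) in that setting and step. NYE1 was also not called there without set 2 (0.84). Of 5 touch and handling genes, 4 rose at day 2 over day 0, 4 fell at day 4 over day 2 and 4 rose at day 8 over day 4, with medians of 4.00, -2.81 and 1.57, beside mean NIT4 ratios of 6.36, -4.86 and 3.53. The senescing leaf genes SAG13 (6.12, -1.98 and 3.07) and ORE1 (4.44, -0.93 and 3.57) had the same order of signs, ORE1 being not called at day 4 over day 2 without set 3 (-0.75) or set 4 (-0.76). Of that list 2 rose at day 2 over day 0, and 1 rose and 2 fell at day 4 over day 2. The gene that rose there, SEN1, was not called without set 1 (1.34), set 2 (1.29) or set 4 (1.24). At the same step the touch gene TCH4 was not called without set 2 (-1.59). With normexp SAG13, ORE1 and SEN1 were not called at day 4 over day 2. In that setting TCH4 was called at no step, the floral organ gene PI was not called at day 2 over day 0, and SEP3 (0.73) was not called at day 8 over day 4. The part of these markers in the nitrilase ratios was not tested. In extracts of whole inflorescences, more cells of a type and more transcript per cell cannot be told apart.

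Genes that code for other enzymes of the nitrilase superfamily, which hydrolyse carbon-nitrogen bonds but are not named nitrilases, did not pass the threshold at any step. The 5 loci tested, among them NLP1 and β-ureidopropionase, had medians of -0.03, -0.06 and -0.10 at the 3 steps in order of time, with single values between -0.36 and 0.30. Over all loci tested the medians were -0.10, 0.06 and -0.08. Of all loci 8.76% were called higher and 5.81% lower at day 2 over day 0. The shares were 3.36% and 5.78% at day 4 over day 2, and 12.7% and 5.56% at day 8 over day 4. With only 5 loci tested, the absence of calls is not read as a contrast to the nitrilases.

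The list of the indole-3-acetaldoxime and indole-3-acetonitrile route holds enzymes that make a nitrile substrate of NIT1 to NIT3 and others that act beside them. Of its 6 tested loci 4 rose at day 2 over day 0, 4 fell at day 4 over day 2 and 4 rose at day 8 over day 4. Over all loci the shares called in these directions were 8.76%, 5.78% and 12.7%. CYP79B2, which converts tryptophan to indole-3-acetaldoxime, was 5.03 ± 0.44 (model SE) at day 2 over day 0 and higher on 4 of 4 arrays (limma, adjusted p = 1.7e-06). It then was -1.99 ± 0.44 at day 4 over day 2 and 2.53 ± 0.44 at day 8 over day 4. CYP71A13, which dehydrates the oxime to indole-3-acetonitrile, followed the same order of signs with 5.18, -3.62 and 1.31 (model SE 0.31). Its relative CYP71A12 was -3.34 ± 0.17 at day 4 over day 2 and was not called at the other steps (0.67 and -0.20).

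CYP79B3, the other tryptophan-metabolising P450 of this route, differed in the middle step. Its log2 ratios were 1.56, 0.76 and 3.77 in order of time (model SE 0.43), with the middle one not called. Its call at day 2 over day 0 was lost without set 2 (1.498) and without set 3 (1.45). The aldehyde oxidase AAO1 was 3.37 at day 2 over day 0 and -1.23 at day 4 over day 2 (model SE 0.17). At day 8 over day 4 its brightest probe was 0.63, and the locus was called through another of its 3 probes. AMI1, an amidase that releases indole-3-acetic acid from indole-3-acetamide, was not called at any step (-0.68, 0.52 and 0.30). With normexp the list had 3, 2 and 2 calls at the 3 steps, against 4 at each in the deposited ratios, and CYP79B3 at day 2 over day 0 (0.40), CYP71A12 at day 4 over day 2 (-0.51) and CYP71A13 at day 8 over day 4 (0.16) were among those lost.

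**Figure D3:**
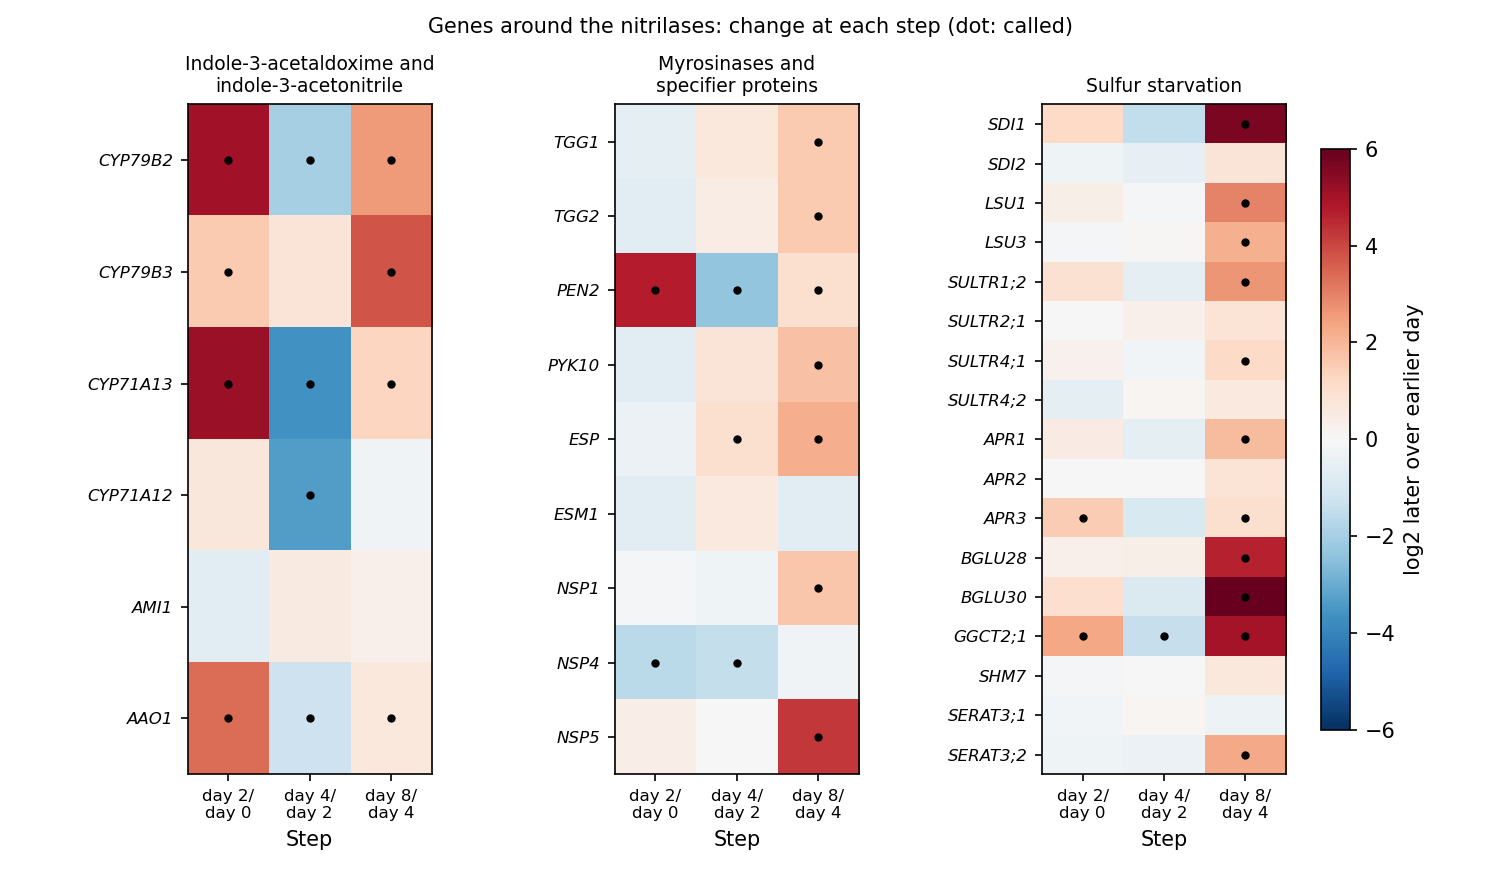
Log2 ratio of the later over the earlier day (colour scale) for tested loci of 3 lists around the nitrilases, with genes as rows and the 3 steps as columns, and a dot where the locus was called by any probe. CYP79B2, CYP71A13 and PEN2 alternate in sign over the steps, and 11 of 17 sulfur starvation genes and 7 of 9 myrosinase and specifier genes are called at day 8 over day 4. The colour scale ends at 6, and BGLU30 (7.70) lies beyond it.

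Of 14 listed genes of the main route of auxin synthesis, by way of indole-3-pyruvate, 8 were tested, and 1, 0 and 1 were called at the 3 steps. Over all loci 8.76% were called higher and 5.81% lower at day 2 over day 0, and 12.7% and 5.56% at day 8 over day 4. At day 4 over day 2 the shares were 3.36% and 5.78%. Nothing is thus read from the counts of this route. YUC2 fell at day 2 over day 0 (-0.94 ± 0.20, model SE) and YUC8 rose at day 8 over day 4 (1.82 ± 0.51), a call lost without set 4 (1.54). Both code for flavin monooxygenases that make indole-3-acetic acid. The list medians were -0.39, -0.02 and -0.52, beside -0.10, 0.06 and -0.08 over all loci. With no fold minimum 5, 1 and 6 of the 8 passed, and with normexp 0 were called at each step. Leaving out 1 set moved its counts of calls, to 2 at day 2 over day 0 without set 1, and at day 8 over day 4 to 2 without set 1 or 2, and to 3 without set 3. Among 12 early auxin-responsive genes, 4 rose and 1 fell at day 2 over day 0, 1 rose and 1 fell at day 4 over day 2, and 4 rose and 1 fell at day 8 over day 4. IAA2, a repressor of auxin signalling, was 2.39 ± 0.15 at day 2 over day 0 and 1.24 ± 0.15 at day 8 over day 4, whereas IAA29 was -2.25 ± 0.26 and -1.72 ± 0.26 at the first steps. GH3.2, which conjugates auxin to amino acids, was 1.52 ± 0.18 and 1.15 ± 0.18 at the same steps. GH3.1 was 2.47 ± 0.57 at day 8 over day 4, a step at which 3 of these genes were called without set 4. With normexp these genes had 4, 0 and 1 calls at the 3 steps.

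Glucosinolate breakdown is the other source of nitriles. Myrosinases cleave the glucosinolate, and specifier proteins then direct the product to nitriles. Of 9 tested genes of this list (13 listed), 7 rose and 0 fell at day 8 over day 4, the step of the largest NIT1 and NIT2 ratios. Over all loci 12.7% were called higher and 5.56% lower at this step. NSP5, a nitrile specifier, was 4.26 ± 0.38 (model SE) and higher on 4 of 4 arrays (limma, adjusted p = 2.3e-06). The epithiospecifier gene ESP was 2.20 ± 0.12, the β-glucosidase gene PYK10 1.77 ± 0.18 and NSP1 1.68 ± 0.18. The classical myrosinase genes TGG1 and TGG2 were 1.58 ± 0.35 and 1.56 ± 0.37. At the earlier steps the list was mixed, with medians of -0.53 and 0.43. PEN2, an atypical myrosinase that acts on indole glucosinolates, was 4.70 ± 0.25 at day 2 over day 0 and -2.38 ± 0.25 at day 4 over day 2. Its smaller ratio at day 8 over day 4 (0.97) was not called without set 1 (0.54) or set 2 (0.81). NSP4 was -1.63 ± 0.33 and -1.45 ± 0.33 at the first steps, the second not called without set 2 (-1.30). Without set 3 the list had 4 calls at day 2 over day 0. With normexp it had 3 calls at day 8 over day 4, against 7 in the deposited ratios, and NSP5 (0.74), PYK10 (0.68), TGG2 (0.41) and PEN2 (0.20) were not called. Without background correction it kept a count of 7.

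Around NIT4, 14 genes of cyanide release and assimilation were tested (of 15 listed). The ACC oxidase gene ACO4, whose enzyme forms ethylene and cyanide, had 3.81, -2.10 and 2.07 in order of time (model SE 0.19), the same order of signs as NIT4. CYSC1, the mitochondrial β-cyanoalanine synthase that makes the substrate of NIT4, was 1.56 ± 0.12 at day 2 over day 0 and -1.02 ± 0.12 at day 4 over day 2. At day 8 over day 4 CYSC1 was 0.79, below the fold minimum. ACO3 ran the other way, with -1.02 ± 0.28 and 1.18 ± 0.28 at the first steps, neither called in every set left out (-0.93 without set 2, 1.16 without set 4). CYSD2, a cysteine synthase gene, rose at day 4 over day 2 (2.11 ± 0.17). Over all loci 8.76% were called higher and 5.81% lower, 3.36% and 5.78%, and 12.7% and 5.56% at the 3 steps in order. Beside these shares the list as a whole had 3 higher and 1 lower, 2 higher and 2 lower, and 2 higher and 0 lower. Its medians were -0.11, 0.12 and 0.08. Without set 1 or set 2 it had 4 calls at day 8 over day 4. With normexp it had 2, 2 and 1 calls at the 3 steps, and ACO4 was called at the first alone.

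Genes of the sulfur starvation response, with which NIT3 is associated, were called mainly in the last step. Of 17 tested (20 listed), 2 rose at day 2 over day 0 and 1 fell at day 4 over day 2. At day 8 over day 4, 11 rose and 0 fell, with a median of 1.89, beside 12.7% and 5.56% of all loci. With normexp 1 of these 11 was called at day 8 over day 4, and SDI1 (1.42), BGLU28 (0.79) and GGCT2;1 (0.49) were not. Without background correction the count was 11, but not of the same genes, since SULTR1;2 was no longer called (0.63). BGLU30, a β-glucosidase gene, reached 7.70 ± 0.74 (model SE), SDI1, a repressor of glucosinolate synthesis, 5.66 ± 0.81, GGCT2;1, a γ-glutamyl cyclotransferase gene of glutathione turnover, 5.01 ± 0.36, and BGLU28 4.60 ± 0.44. GGCT2;1 was also 2.33 ± 0.30 at day 2 over day 0 and -1.40 ± 0.30 at day 4 over day 2, the second of these not called without set 1 (-1.36), whereas without set 4 the list had 3 calls at that step. APR3, an adenylylsulfate reductase gene, was 1.51 ± 0.36 at day 2 over day 0. Its ratio at day 8 over day 4 (0.94) was not called without set 1 (0.63), set 2 (0.56) or set 3 (1.18), and that of APR1 (1.89) was not called without set 1 (1.49) or set 2 (1.39). The NIT3 ratios of the same step were 1.76, 2.13, 1.85 and -0.50.

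The pattern over the 12 arrays was compared with that of the 5725 loci called in at least 1 step, by Pearson r between log2 ratios. The arrays share extracts and the 3 steps dominate such an r, so it is a description. For NIT2 the highest r was that of AT5G16960 (0.987), followed by the xyloglucan hydrolase gene XTH11 (0.964), SRG1 (0.956), JRG21 (0.953), AT5G52050 (0.948), AT5G55560 (0.945), ChlAKR (0.944), AT1G59740 (0.944), AT2G45220 (0.944) and the formate dehydrogenase gene FDH (0.934). AT5G16960 stayed among the first 10 under all 6 other ways of comparing (Spearman's rho, without the first step, and without each set), and FDH under none of them.

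The split of NIT2 between sets entered this r, so the loci nearest to it share it in part by selection. The AT5G16960 log2 ratios of day 4 over day 2 were 1.12, 2.06, -0.02 and -2.49 in sets 1 to 4, beside 2.23, 2.91, 0.20 and -3.48 for NIT2. At day 2 over day 0 its ratios were 2.11, 2.16, 2.92 and 5.22, beside 2.99, 2.82, 4.65 and 5.78. With the mean of each step removed, r was 0.961 for AT5G16960 and 0.945 for the transcription factor gene Rap2.6L, then 0.916 for AT4G15690 and for the sucrose transporter gene SWEET12. Rap2.6L had 0.22, 0.59, -1.05 and -1.81 at day 4 over day 2. This comparison within steps was added after the data had been seen, and it picks loci by the NIT2 deviations themselves, of which that of set 4 at this step is large, so nothing further is read from it.

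**Figure D4:**
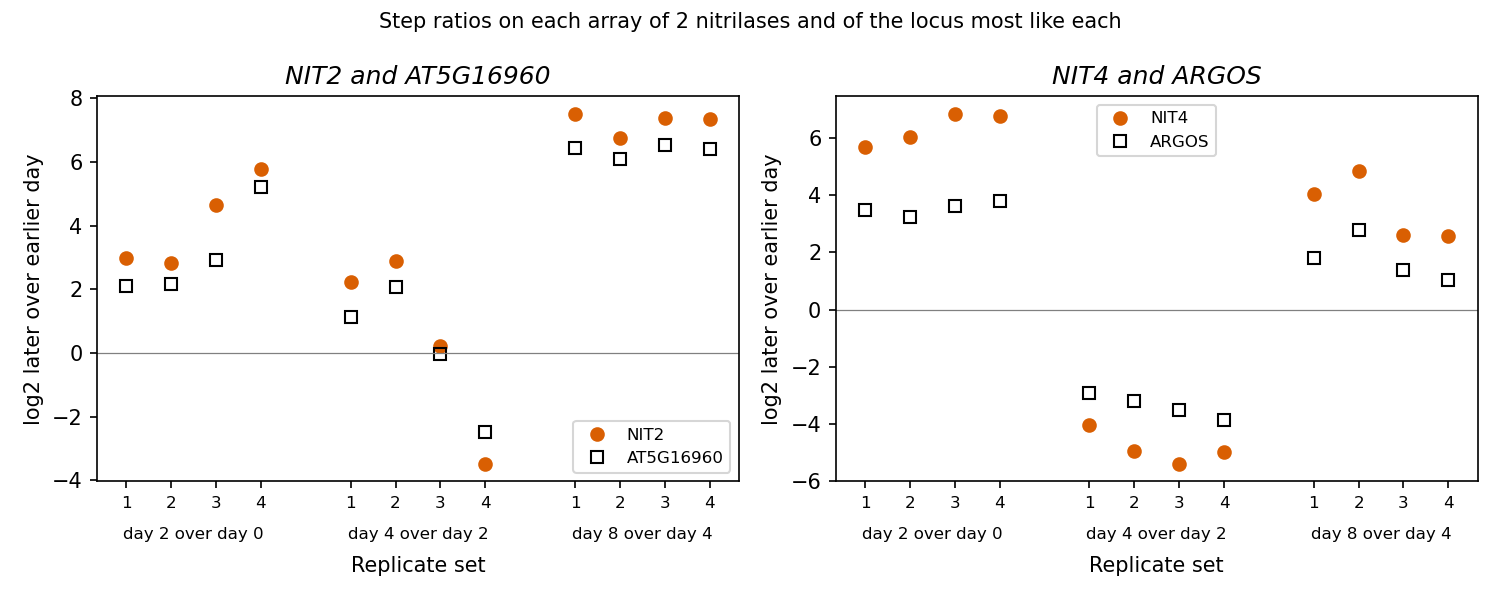
Log2 ratio of the later over the earlier day (vertical axis) on each of the 12 arrays (horizontal axis, sets 1 to 4 within each step) for NIT2 with AT5G16960 and for NIT4 with ARGOS, with filled circles for the nitrilase and open squares for the other locus. NIT2 and AT5G16960 are both below -2 at day 4 over day 2 in set 4 alone, and NIT4 and ARGOS change sign together at each step in all 4 sets.

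For NIT4 the highest r belonged to ARGOS, a regulator of organ size (0.997), the glutathione transferase gene GSTF6 (0.997) and AT5G59540 (0.997). ARGOS had mean ratios of 3.54, -3.39 and 1.76 and GSTF6 had 5.25, -3.41 and 3.05, beside 6.36, -4.86 and 3.53 for NIT4. As many as 967 loci had an r above 0.9 with NIT4, against 224 with NIT1, 49 with NIT2 and 0 with NIT3. The NIT4 pattern was thus widely shared, and its 3 nearest loci are separated by less than 0.001 in r. For NIT1 the highest r were those of AT3G53960 (0.974), the aminotransferase gene AGT3 (0.972) and AT2G38870 (0.972). For NIT3 they were those of At17.1 (0.896), the peroxidase gene PER4 (0.873) and RALFL33 (0.872). With Spearman's rho, 2 of the first 10 of NIT2 and 0 of the first 3 of each other nitrilase were the same loci.

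NIT2, NIT1 and NIT3 follow each other in order of locus number, and no other locus of the array lay between them. Neighbours were taken in the same order. The array was designed on TAIR8, and the RefSeq annotation of assembly TAIR10.1 served only for names. AT3G44280 was not called at any step (-0.13, 0.05 and -0.0017), nor was AT3G44330 on the other side. NAC060, a NAC transcription factor gene next to NIT2, was -0.94 ± 0.14 (model SE) at day 2 over day 0, 0.81 ± 0.14 at day 4 over day 2 and -0.06 at day 8 over day 4. AT3G44326, next to NIT3, was 1.38, -1.56 and 1.18 (model SE 0.24) and was called at all 3 steps, with limma adjusted p of 0.00058, 0.00045 and 0.0013 and with the same direction on 4 of 4 arrays at each step. The NIT3 means were 1.07, -0.48 and 1.31, those of NIT1 0.56, 0.27 and 1.75, and those of NIT2 4.06, 0.46 and 7.25.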

How the data were processed

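RNA of 16 extracts was hybridised to 12 two-colour custom Agilent arrays. The authors deposited log10 ratios of Cy5 over Cy3, background-subtracted and dye-normalised per the file headers (Feature Extraction 10.5.1.1), and scanner files with intensity values and quality marks. The error-model averages of the study were not used here.

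The deposited log10 ratios were oriented so that the later day is the numerator, and expressed as log2. Outlier-marked spots (718) were left out. A probe stayed in if, for any day, 50% or more of that day's channels on the 10 matching arrays were well above background. Limma 3.58.1 (R 4.3.3; lmFit, then eBayes with an intensity trend) was fitted on all arrays with 1 coefficient per step and a dye term, with Benjamini-Hochberg adjustment over 28247 probes. Any called probe called its locus, and the brightest gave its value. The fit was tested on simulated data. RefSeq (TAIR10.1) gave symbols for 99.3% of loci.

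The set number of the labels was taken to mark 1 biologically independent set and to pair the arrays. Deviations of same-numbered arrays correlated at -0.13 to 0.22, with 4 of 12 pairs over 0.1. Arrays of different numbers reached -0.27 and 0.34, so this check does not bear out the pairing. Sums within sets and readings of 1 extract on 2 arrays rest on the pairing. If it holds, consecutive arrays share an extract with opposite sign, so they are not fully independent.

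The members and lists were chosen with earlier results of these data known. Named were all members, up to 4 called loci per list and step by size, the 10 loci most like NIT2, the 3 most like each other nitrilase, and 2 neighbours on each side. Further list genes were named after their values were seen. The values of 1 listed gene are not reported here.

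Alternatives were scanner intensity (median spot signal, with normexp and offset 50 or without background correction, then loess), centring, no filter on dim probes, marked spots kept, no dye term, replicate set or slide as a block, no trend, other fold minimums and leaving out each set.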

Additional observations from a re-analysis of the deposited data

Results flagged for a closer look

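Of 12 groups of 4 arrays examined (4 nitrilases at 3 steps), 2 held an array far from the others, where chance alone marks about 1 group in 20. NIT1 at day 2 over day 0 had a log2 ratio of 0.29 in set 1, below the other sets at 0.62 to 0.68, and the gap made up 0.840 of the whole range. NIT3 at day 8 over day 4 had -0.50 in set 4, below the other sets at 1.76 to 2.13, with a gap of 0.861 of the range. In that set and step NIT3 was well above background in Cy5, which carried day 4, and not in Cy3, which carried day 8.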

How the results depend on the processing

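Of 577 results recomputed under alternatives, 505 kept their value or count within the spread and 72 moved. The settings of filter, marked spots, dye term, block and trend returned identical member ratios, since they could change only the spread. Wide spreads also hid changes, as for NIT3 at day 2 over day 0, at 1.07 and with normexp 0.03, which counted as kept. The tally is therefore no measure of how firm the ratios are. No called member ratio changed sign. Scanner intensities of the 10 matching arrays with normexp gave log2 ratios of -0.0599 (day 4 over day 2) and 1.29 (day 8 over day 4) for NIT1, 0.25 (day 2 over day 0) and 4.60 (day 8 over day 4) for NIT2, 0.0742 (day 8 over day 4) for NIT3, and 3.43, -2.18 and 0.57 at the 3 steps for NIT4, where the last call of NIT4 was lost. Without background correction NIT2 had 0.56 at day 2 over day 0 and 6.75 at day 8 over day 4, and NIT4 had 4.197 at day 2 over day 0 and -3.95 at day 4 over day 2. The NIT2 call at day 2 over day 0 was lost in both. These settings used 10 arrays, and at day 2 over day 0 they held sets 1 and 2 alone. Their values and calls at that step thus differ from the deposited ones in the sets used as well as in the processing. Normexp adds an offset of 50 to each signal, near or above the NIT2 and NIT4 signals of day 0 and the NIT3 signals of every day.

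With normexp, 1000 loci were called higher and 270 lower at day 2 over day 0, 45 and 370 at day 4 over day 2, and 518 and 129 at day 8 over day 4, against 1832 and 1215, 702 and 1209, and 2657 and 1162 in the deposited values. Without background correction 375 were lower at day 2 over day 0, 263 higher at day 4 over day 2 and 380 lower at day 8 over day 4. With no fold minimum the counts were 3817 and 6877, 3448 and 2557, and 5121 and 7413, and a 2-fold minimum left 727 lower at day 8 over day 4. Of 62 calls in the gene lists, normexp lost 38 and the setting without background correction 15, whereas leaving out 1 set lost 2 to 6, and centring, kept spots, no dye term and the slide as a block lost 0. The cause was not tested.

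With the replicate block the NIT3 ratio at day 2 over day 0 (1.07, SE 0.40) was no longer called, and APR3 lost its call at day 8 over day 4. The block changed no other call of a member or listed gene and gave 1817 loci higher and 1197 lower at day 2 over day 0. Each nitrilase has 1 probe, so averaging probes could not be tried. NIT3 was well above background in 0 of 10 Cy3 and in 8 of 10 Cy5 channels, and the cause of its unstable calls was not tested.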
